A study of Rattus norvegicus with 6 samples.

Results

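Hopx, Nkx2-5, Mef2c and Myocd are 4 genes whose products steer the transcription of heart muscle genes, and they were followed here in rat heart cells exposed to antiretroviral drugs (ARVs). They were picked by name, Hopx as the gene the study followed up and the others as regulators listed beside it, and all 4 were found among the 1756 genes of the deposited table. The ARVs group was made of neonatal rat ventricular cardiomyocytes (NRVCs) treated for 24 h with ritonavir, abacavir, atazanavir and lamivudine at 5 µM, and the DMSO group was made of the same cells given the solvent. Each group had 3 RNA sequencing libraries. The cells came from Harlan Sprague–Dawley rats aged 2 to 3 days and were enriched for myocytes by pre-plating, so other ventricular cells can remain in such cultures. Ritonavir and atazanavir block the HIV protease, and abacavir and lamivudine block its reverse transcriptase. Whether separate cell isolations stand behind the libraries is not stated, so every p-value here covers the spread between these libraries, which may be technical. It is also not stated whether the 5 µM was the dose of each drug or of all together.

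The heart uses a small set of regulators that act on shared target genes. NKX2-5 is a homeodomain factor of the early heart, and MEF2C is a MADS-box factor that switches on muscle genes. Myocardin, the product of Myocd, does not bind DNA itself and works as a strong coactivator of serum response factor (SRF) at a sequence called the CArG box. HOPX has a homeodomain that does not bind DNA. In mice it acts downstream of NKX2-5, restrains SRF and recruits the histone deacetylase HDAC2.

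With ARVs, Hopx and Nkx2-5 rose and Mef2c and Myocd fell. The fold changes were 1.48 for Hopx, 1.32 for Nkx2-5, 0.627 for Mef2c and 0.884 for Myocd, each as ARVs over DMSO. The fall of Myocd was small and did not pass under some other scalings of the libraries. The deposited table is restricted to genes already called different by the authors in these same libraries. Accordingly, 100% of the 1751 genes entered into the edgeR test had an adjusted p under 0.05, with 39.9% higher and 60.1% lower with ARVs. That all 4 genes passed is thus a property of the table, and their p-values are given beside the size and the error of each change, not as independent support. The adjustment of p ran over these listed genes only, and the fold changes and intervals are not corrected for the selection.

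Of the 4 genes, 2 had an entry in the RefSeq table of gene starts, namely those that rose. Their upstream sequences are shown because only these 2 had an entry. Each run gives the 250 bases before the annotated start on the plus strand of build GRCr8, at chr14:31429163-31429412 for Hopx and chr10:16848350-16848599 for Nkx2-5. Capitals mark matches to any of the motifs searched.
Hopx: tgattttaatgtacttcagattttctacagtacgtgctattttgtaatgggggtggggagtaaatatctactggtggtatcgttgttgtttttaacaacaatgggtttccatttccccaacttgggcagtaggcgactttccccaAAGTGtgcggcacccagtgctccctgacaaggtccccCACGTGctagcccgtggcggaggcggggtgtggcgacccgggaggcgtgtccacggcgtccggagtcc
Nkx2-5: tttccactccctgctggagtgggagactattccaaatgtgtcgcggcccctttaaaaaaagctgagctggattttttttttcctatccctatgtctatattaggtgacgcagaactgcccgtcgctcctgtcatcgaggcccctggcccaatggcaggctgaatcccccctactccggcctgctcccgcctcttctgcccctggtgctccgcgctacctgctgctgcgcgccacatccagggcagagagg

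Both strands were searched for the NKX2-5 core AAGTG, the GATA motif AGATAA, the TATA box TATAAA, the E-box CACGTG, the MEF2 motif and the CArG box. The Hopx window held AAGTG from base -105 to base -101 and CACGTG from base -68 to base -63, counted back from the start, and these did not overlap. The 5-letter core is common by its length: 40.6% of the 33469 annotated windows of this size held it, and 5.59% held the E-box. The Nkx2-5 window held none of the 6 motifs, which says only that these letters are not in it. The GATA motif was in 10.3% of all windows, the TATA box in 12.9%, the MEF2 motif in 2.96% and the CArG box in 1.5%. These matches are letters in a sequence, and no binding was measured.

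Hopx (ENSRNOG00000024689) lies on the plus strand of chromosome 14, from base 33354807 to base 33362551 in the coordinates that the files give, whose build is not named in them. It had 662, 550.2 and 693 normalized read counts in ARVs replicates 1, 2 and 3, against 388, 475 and 422 in DMSO replicates 1, 2 and 3. A normalized count is the raw read count divided by the authors' size factor of that library. Every ARVs library lay above every DMSO library, and the gap between the lowest ARVs and the highest DMSO library was 75.6 counts. The means were 635 ± 75.0 with ARVs and 428 ± 43.6 with DMSO (SD, n = 3 each), and the log2 fold change was 0.57 with a standard error of 0.11 and a 95% interval of 0.31 to 0.82 (edgeR's quasi-likelihood test with Benjamini-Hochberg adjustment, adjusted p = 0.0022). Hopx was the least abundant of the 4 in counts and the most variable among ARVs libraries. Its coefficient of variation was 11.8% with ARVs and 10.2% with DMSO, while counting error alone would give 4.01% and 4.78%.

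Nkx2-5 (ENSRNOG00000020747) lies on the plus strand of chromosome 10, from base 16635989 to base 16638764. It had 4469.5, 4307 and 4256 normalized counts in ARVs replicates 1, 2 and 3, against 3124, 3648 and 3099.7 in DMSO replicates 1, 2 and 3. The ARVs libraries were close to each other and all above the DMSO libraries, of which replicate 2 was the highest. The means were 4344 ± 112 and 3291 ± 310.1 (SD, n = 3 each), and the log2 fold change was 0.40 with a standard error of 0.07 and a 95% interval of 0.24 to 0.56 (adjusted p = 0.00133 from edgeR). The spread between DMSO libraries, 9.42%, exceeded the 1.72% that counting error gives, whereas the spread between ARVs libraries was 2.57% against 1.53%.

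Mef2c (ENSRNOG00000033134), on the plus strand of chromosome 2 from base 11658568 to base 11822787, was lower with ARVs. It had 1356, 1327 and 1442 normalized counts in ARVs replicates 1, 2 and 3, against 2436, 1947 and 2197 in DMSO replicates 1, 2 and 3. No library of either group came closer than 505 counts to the other group. The means were 1375 ± 59.6 with ARVs and 2193 ± 245 with DMSO (SD, n = 3 each), and the log2 fold change was -0.67 with a standard error of 0.08 and a 95% interval of -0.86 to -0.49 (adjusted p = 2.9e-04 from edgeR). Its fold change was the farthest from 0 of the 4 with the authors' size factors, but not with TMM factors (Mef2c -0.58, Hopx 0.66) or median-ratio factors (Mef2c -0.47, Hopx 0.76, Nkx2-5 0.60), nor without ARVs replicate 2 (Mef2c -0.65, Hopx 0.66). With the authors' factors, 77.2% of the genes tested had a smaller absolute log2 fold change than Mef2c, 69.6% a smaller one than Hopx and 52.2% a smaller one than Nkx2-5.

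Myocd (ENSRNOG00000003669) lies on the minus strand of chromosome 10, from base 51683540 to base 51778986. It had 2525, 2539.9 and 2423 normalized counts in ARVs replicates 1, 2 and 3, against 2798, 2856 and 2815 in DMSO replicates 1, 2 and 3. The change was small, but the libraries within a group were so alike that the groups did not overlap. The means were 2496 ± 63.9 and 2823 ± 30.1 (SD, n = 3 each), and the log2 fold change was -0.18 with a standard error of 0.04 and a 95% interval of -0.28 to -0.08 (adjusted p = 0.00471 from edgeR). The DMSO libraries spread by 1.06%, less than the 1.86% of counting error alone. Only 2.51% of the tested genes had a smaller absolute log2 fold change. The fall of Myocd rested on the scaling: with TMM factors set on the listed genes, under which 90.3% of the tested genes passed, its log2 fold change was -0.08 (adjusted p = 0.105 from edgeR). With DESeq2's median-ratio factors set on the same genes it was 0.02 (adjusted p = 0.757 from edgeR). With the library totals that FPKM implies, which are not set on the listed genes, it was -0.15 (adjusted p = 0.0142 from edgeR). Under that scaling 1748 genes passed.

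**Figure D1:**
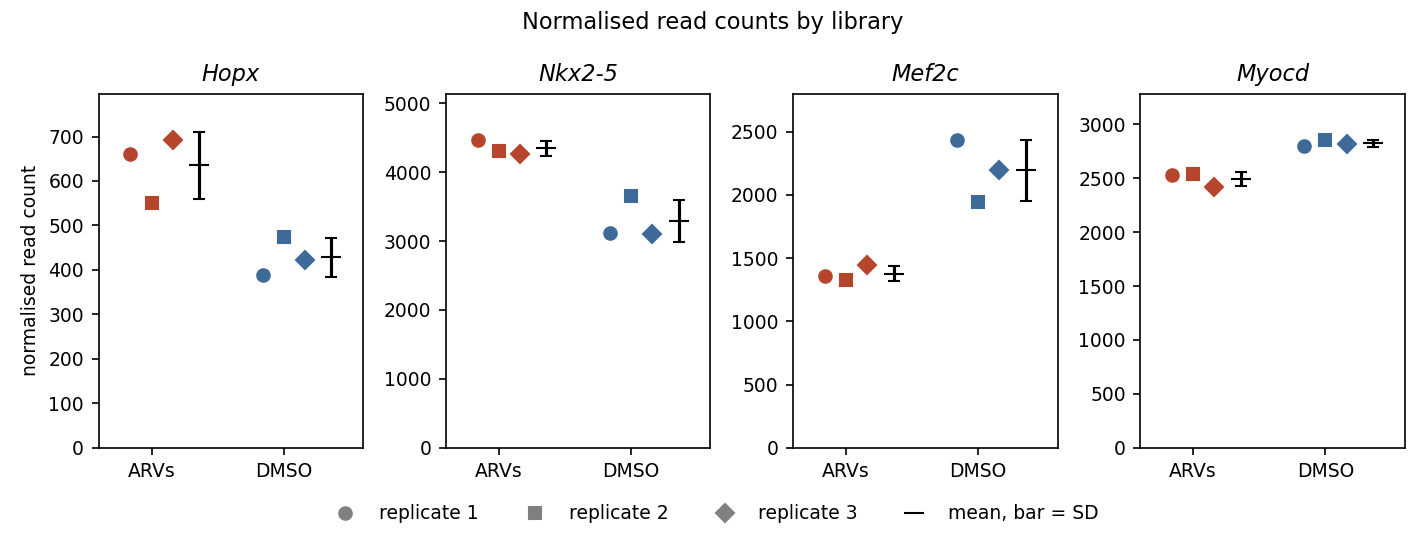
Normalized read counts (y axis, from 0) of the 4 genes in each library, with ARVs in red and DMSO in blue, the replicate number as the marker shape, and the mean with its SD as the black bar (n = 3 each). The groups do not overlap for any of the 4 genes, and DMSO replicate 2 is the DMSO library nearest to the ARVs libraries for Hopx, Nkx2-5 and Mef2c but not for Myocd.

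In all 4 genes the libraries of the groups did not overlap, as was so for 95.9% of the 1756 listed genes. For 1 gene alone, 3 libraries against 3 allow an exact permutation p of 0.1 at the lowest. In the RefSeq annotation of GRCr8, Hopx overlaps 2 long noncoding RNA genes, Mef2c 1 and Myocd 1. These overlaps are of whole gene spans, and whether exons overlap was not checked. The counting is not stated to use strand, so any reads of these RNAs on exons of the regulators could not be told apart.

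One DMSO library, replicate 2, was unlike DMSO replicates 1 and 3 over the listed genes, at 29.3 and 32.0 in a chi-square statistic divided by its degrees of freedom. All other pairs within a group gave 4.84 to 6.44. In this library Hopx lay 30.2% of the way from the mean of the other DMSO libraries to the ARVs mean, Nkx2-5 lay 43.6% of the way and Mef2c 39.3%. Myocd lay slightly on the far side, at -16.0%. Over 1713 listed genes (mean count 50 or more) the median was 17.4%, so the lean toward ARVs was common in this library. Egln3, an oxygen-sensing prolyl hydroxylase induced by hypoxia and named here after its values were seen, had 3328, 2476 and 3657 counts in ARVs replicates 1, 2 and 3, against 8717, 3681 and 9693 in DMSO replicates 1, 2 and 3. Whether the state of this library bears on the regulators was not tested. Without DMSO replicate 2, the log2 fold changes were 0.65 for Hopx, 0.48 for Nkx2-5, -0.75 for Mef2c and -0.17 for Myocd. All 4 passed the edgeR test, but so did 1751 of the 1756 listed genes.

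The ratio of 2 of these genes within a library does not depend on how libraries are scaled, so it shows how they moved against each other. The log2 ratio of Nkx2-5 to Mef2c in raw counts was 1.72, 1.70 and 1.56 in ARVs replicates 1, 2 and 3, against 0.36, 0.91 and 0.50 in DMSO replicates 1, 2 and 3. The means were 1.66 ± 0.09 and 0.59 ± 0.28 (SD, n = 3 each), a difference of 1.07 on the log2 scale. The balance of both genes thus moved toward Nkx2-5 in every ARVs library, and ARVs and DMSO libraries did not overlap. This had to be so, because each gene alone separated the groups and they went opposite ways.

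Hopx moved against Mef2c by still more. Their log2 ratio was -1.04, -1.27 and -1.06 in ARVs replicates 1, 2 and 3, against -2.65, -2.04 and -2.38 in DMSO replicates 1, 2 and 3, a difference of 1.23. Against Myocd, Hopx gained 0.74 and Nkx2-5 gained 0.58 on the log2 scale. The ratio of Mef2c to Myocd was lower with ARVs by a difference of -0.49, at -0.86 ± 0.10 with ARVs and -0.37 ± 0.18 with DMSO (SD, n = 3 each). In these 5 pairs the groups did not overlap. Each had the smallest p the design allows (exact permutation test, two-sided, p = 0.1, or 0.12 adjusted by Benjamini-Hochberg over the 6 pairs). Where a gene that rose was set against a gene that fell, both outcomes were fixed beforehand, because each gene alone already separated the groups. Among these pairs, only Mef2c to Myocd, both lower with ARVs, was not bound to part in this way.

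The pair that did not part was Hopx and Nkx2-5. Their log2 ratio was -2.76, -2.97 and -2.62 in ARVs replicates 1, 2 and 3, against -3.01, -2.94 and -2.88 in DMSO replicates 1, 2 and 3. ARVs replicate 2 lay within the DMSO range, and the difference of the means was 0.16, smaller than the SD of 0.18 among ARVs libraries (exact permutation test, two-sided, p = 0.3, also 0.3 after adjustment over the 6 pairs). A design of this size does not show that both genes rose by the same factor.

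**Figure D2:**
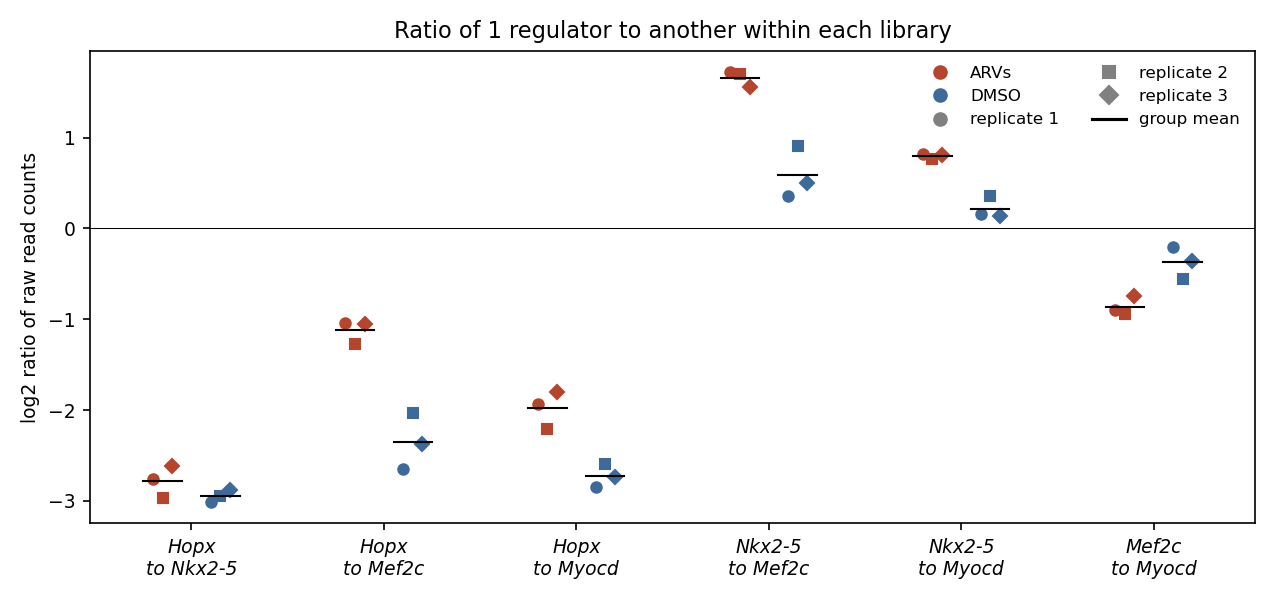
The log2 ratio of raw read counts of 2 regulators within each library (y axis), for the 6 pairs (x axis), with ARVs libraries in red and DMSO libraries in blue, the replicate as the marker shape and the group mean as a black line. The groups are apart in 5 pairs, by up to 1.23 for Hopx to Mef2c, and overlap for Hopx to Nkx2-5.

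Levels of different genes can be compared only per length, for which the authors' FPKM was used (fragments per kilobase of transcript, scaled to library size). Nkx2-5 was by far the most abundant of the 4, at 167 ± 4.63 FPKM with ARVs and 124 ± 13.3 FPKM with DMSO (SD, n = 3 each). The other genes changed places. Hopx had 32.9, 27.8 and 34.2 FPKM in ARVs replicates 1, 2 and 3, against 18.7, 23.5 and 20.7 FPKM in DMSO replicates 1, 2 and 3. Mef2c had 21.5, 21.4 and 22.7 FPKM with ARVs, against 37.5, 30.8 and 34.2 FPKM with DMSO. In ARVs libraries Hopx was thus above Mef2c in all 3, and in DMSO libraries it was below Mef2c in all 3.

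Myocd had 31.4, 32.1 and 29.9 FPKM in ARVs replicates 1, 2 and 3, against 33.8, 35.4 and 34.4 FPKM in DMSO replicates 1, 2 and 3. It overlapped Hopx in the ARVs libraries and Mef2c in the DMSO libraries, so these neighbours in the order did not differ beyond their spread. The order depends on the length used. The authors' FPKM of Mef2c corresponds to a length of 3256 bases and that of Myocd to 4151 bases, while the table lists 6451 and 5090 bases for these genes. For Hopx and Nkx2-5 both lengths were equal, at 1038 and 1344 bases. With the listed lengths, Mef2c came to 11.03 ± 0.37 with ARVs and 17.2 ± 1.69 with DMSO (SD, n = 3 each), under Hopx in both groups, and Myocd to 25.4 ± 0.90 and 28.2 ± 0.68. The first place of Nkx2-5 held with either length, while the crossing of Hopx and Mef2c was seen only with the authors' FPKM.

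**Figure D3:**
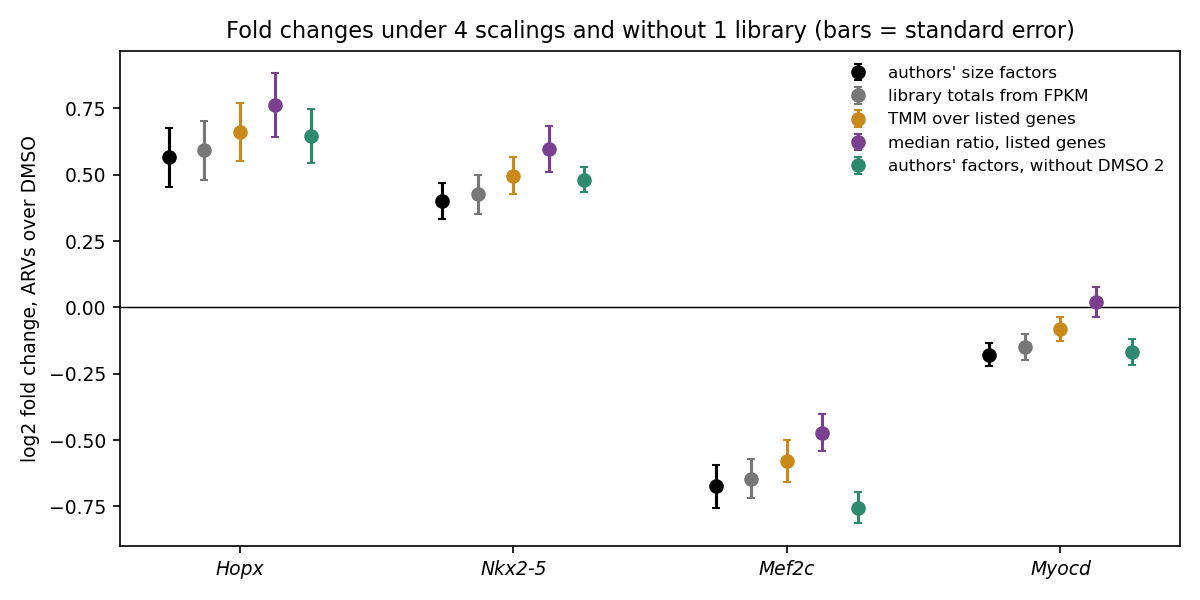
The log2 fold change of ARVs over DMSO (y axis) of the 4 genes with the authors' size factors, with library totals from FPKM, with TMM or median-ratio factors, and without DMSO replicate 2, with standard errors from the edgeR fit as bars. Hopx and Nkx2-5 stay above 0 and Mef2c below 0 in all 5 settings shown, while Myocd reaches 0.02 with median-ratio factors.

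Genes with the most similar pattern were sought for each regulator by the root mean square difference of log2 values, each gene centred on its own mean over the 6 libraries. For Hopx the nearest of 1712 genes were Gstm1, a glutathione S-transferase, at 0.076, Prr7 at 0.078 and Irx3, a homeobox factor, at 0.079, where the median over all genes was 0.44. For Nkx2-5 they were Ppm1f, a protein phosphatase, at 0.027, Cpox, an enzyme of heme synthesis, at 0.028 and Cnppd1 at 0.036. Cpox had 1173 ± 23.7 normalized counts with ARVs and 895 ± 104 with DMSO (SD, n = 3 each). For Mef2c they were Ckb, the brain type of creatine kinase, at 0.051, Plod2, a lysyl hydroxylase of collagen, at 0.055 and Klf9, a Krüppel-like factor, at 0.058. Ckb had 5295 ± 168 normalized counts with ARVs and 8423 ± 1007 with DMSO (SD, n = 3 each). The nearest genes of Myocd were Col5a2, a fibrillar collagen chain, at 0.0093, Pfn1, the actin-binding profilin 1, at 0.010 and Cse1l, a nuclear export factor, at 0.015. With median-ratio factors, these 3 genes had log2 fold changes of 0.0022 to 0.019, close to that of Myocd. The median distance over all genes was 0.35 from Nkx2-5, 0.26 from Mef2c and 0.23 from Myocd. Since every listed gene differed between the groups, a small distance here goes with a similar fold change, as in Gstm1 (log2 fold change 0.46), Ckb (-0.67) and Col5a2 (-0.19).

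A list of other heart transcription regulators, which leaves out the 4 genes above, held 48 symbols. Mrtfa and Mrtfb stood on it also under their older symbols Mkl1 and Mkl2. Of the 48 symbols, 10 were in the table, 7 of them higher and 3 lower with ARVs. Over all tested genes, 39.9% were higher and 60.1% lower. The 10 genes present had a median log2 fold change of 0.30, against -0.25 over all tested genes. Genes of this and the following lists that are missing from the table were not called or not tested by the authors and were not analysed here. Klf15, a Krüppel-like factor that restrains hypertrophic growth in mice, had 487 ± 35.8 normalized counts with ARVs and 322 ± 60.5 with DMSO (SD, n = 3 each), and the log2 fold change was 0.60 (adjusted p = 0.00364 from edgeR). Hand2, a basic helix-loop-helix factor of the right ventricle, rose by 0.42, and Irx3 by 0.46. Smyd1, a muscle methyltransferase whose gene is a target of MEF2C in mice, rose by 0.32. The homeobox factor Meis2 rose by 0.29, and Ankrd1, a muscle ankyrin repeat protein, rose to 144422 ± 2652 counts with ARVs, against 116170 ± 13016 with DMSO (SD, n = 3 each).

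The 3 lower genes of that list were Lmcd1, Fhl2 and Thrb. Lmcd1, a LIM domain protein that interferes with GATA6, had 955 ± 143 normalized counts with ARVs and 1402 ± 162 with DMSO (SD, n = 3 each), and the log2 fold change was -0.55 (adjusted p = 0.00311 from edgeR). Fhl2, a LIM domain cofactor, had a log2 fold change of -0.21, which did not pass with TMM factors (-0.11, adjusted p = 0.0747 from edgeR). It passed with library totals from FPKM (-0.18, adjusted p = 0.0089 from edgeR). Thrb, a thyroid hormone receptor and named after its values were seen, had a log2 fold change of -0.62, and its ARVs and DMSO libraries overlapped.

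The next list held genes for proteins that HOPX works with at chromatin, together with other histone-modifying genes. Of 26 partners and histone-modifying genes on the list, 3 were present, and Kat2a was higher and Rbbp7 and Hdac9 were lower with ARVs. This is near the table as a whole, of which 39.9% was higher and 60.1% lower, and so is the median log2 fold change of -0.21, against -0.25 over all tested genes. Kat2a, a histone acetyltransferase, had 754 ± 26.2 normalized counts with ARVs and 619 ± 41.4 with DMSO (SD, n = 3 each), and the log2 fold change was 0.29. Hdac9, a class IIa histone deacetylase that binds and represses MEF2 factors and is itself a MEF2 target in mice, had 229 ± 6.65 counts with ARVs and 315 ± 34.6 with DMSO (SD, n = 3 each), and the log2 fold change was -0.47 (adjusted p = 0.00431 from edgeR). Rbbp7, a histone-binding subunit of deacetylase complexes, had a log2 fold change of -0.21. Neither fall passed with median-ratio factors, at -0.27 for Hdac9 (adjusted p = 0.0615 from edgeR) and -0.01 for Rbbp7 (adjusted p = 0.85 from edgeR). With library totals from FPKM both passed, at -0.44 for Hdac9 (adjusted p = 0.0051 from edgeR) and -0.18 for Rbbp7 (adjusted p = 0.0047 from edgeR).

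Of 45 heart muscle genes that NKX2-5 or MEF2C help to regulate, 19 were in the table, 8 higher and 11 lower with ARVs. This division is close to that of all tested genes (39.9% higher and 60.1% lower), and the median log2 fold change was -0.18, against -0.25 over all tested genes. The count is therefore no result about this list, and the genes are given for their own values. The myosin heavy chains went opposite ways. Myh7, the slow form, had 151604 ± 1932 normalized counts with ARVs and 106617 ± 5472 with DMSO (SD, n = 3 each), and the log2 fold change was 0.51 (adjusted p = 1.1e-04 from edgeR), and Myh6, the fast form, had 96959 ± 10880 with ARVs and 178135 ± 28969 with DMSO (SD, n = 3 each), and the log2 fold change was -0.88 (adjusted p = 5.8e-04 from edgeR). Myom2, an M-band protein of the sarcomere, rose by 0.79, and Pln, the inhibitor of the calcium pump of the sarcoplasmic reticulum, by 0.38.

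Hcn4, the pacemaker channel gene, had the largest rise of this list, with 686 ± 33.3 normalized counts in ARVs libraries and 372 ± 74.0 in DMSO libraries (SD, n = 3 each), and the log2 fold change was 0.88 (adjusted p = 6.6e-04 from edgeR). Mb, which encodes myoglobin, had a log2 fold change of -0.58. Nppa, the atrial natriuretic peptide gene and a classic target of NKX2-5, had one of -0.29, and Kcnh2, a potassium channel gene, one of -0.24. With median-ratio factors, neither Nppa (-0.09, adjusted p = 0.0859 from edgeR) nor Kcnh2 (-0.05, adjusted p = 0.478 from edgeR) passed. With library totals from FPKM, both Nppa (-0.26, adjusted p = 0.0014 from edgeR) and Kcnh2 (-0.22, adjusted p = 0.0024 from edgeR) passed. The number of lower genes on this list moved with the scaling, to 6 with TMM and 4 with median-ratio factors, while 8 were higher with each of these scalings.

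The list of myocardin and SRF targets held 36 symbols, with Ccn1 and Ccn2 also under their older symbols Cyr61 and Ctgf. Of the 36 symbols, 15 were lower with ARVs, 3 were higher and 18 were not in the table. Over all tested genes, 60.1% were lower. The 18 genes present had a median log2 fold change of -0.50, against -0.25 over all tested genes. The number of lower genes was 11 with TMM and 10 with median-ratio factors. Myh11, the smooth muscle myosin heavy chain, had 801 ± 34.6 normalized counts with ARVs and 1649 ± 299.7 with DMSO (SD, n = 3 each), and the log2 fold change was -1.04 (adjusted p = 2.5e-04 from edgeR). Mylk, the myosin light chain kinase of smooth muscle, fell by 0.76 on the log2 scale, and the smooth muscle actin gene Actg2 fell by 0.84. Tagln had 17428 ± 994 normalized counts with ARVs and 26021 ± 764 with DMSO (SD, n = 3 each), and the log2 fold change was -0.58 (adjusted p = 8.0e-05 from edgeR). Cnn1, Myl9, Itga8 and Lmod1, all genes of contractile or adhesive proteins of smooth muscle, had log2 fold changes of -0.51, -0.51, -0.51 and -0.50. The higher genes were Egr1 (0.70), Ccn1 (0.29) and Pdlim5 (0.25), named after their values were seen, of which Egr1 and Ccn1 are immediate early genes.

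**Figure D4:**
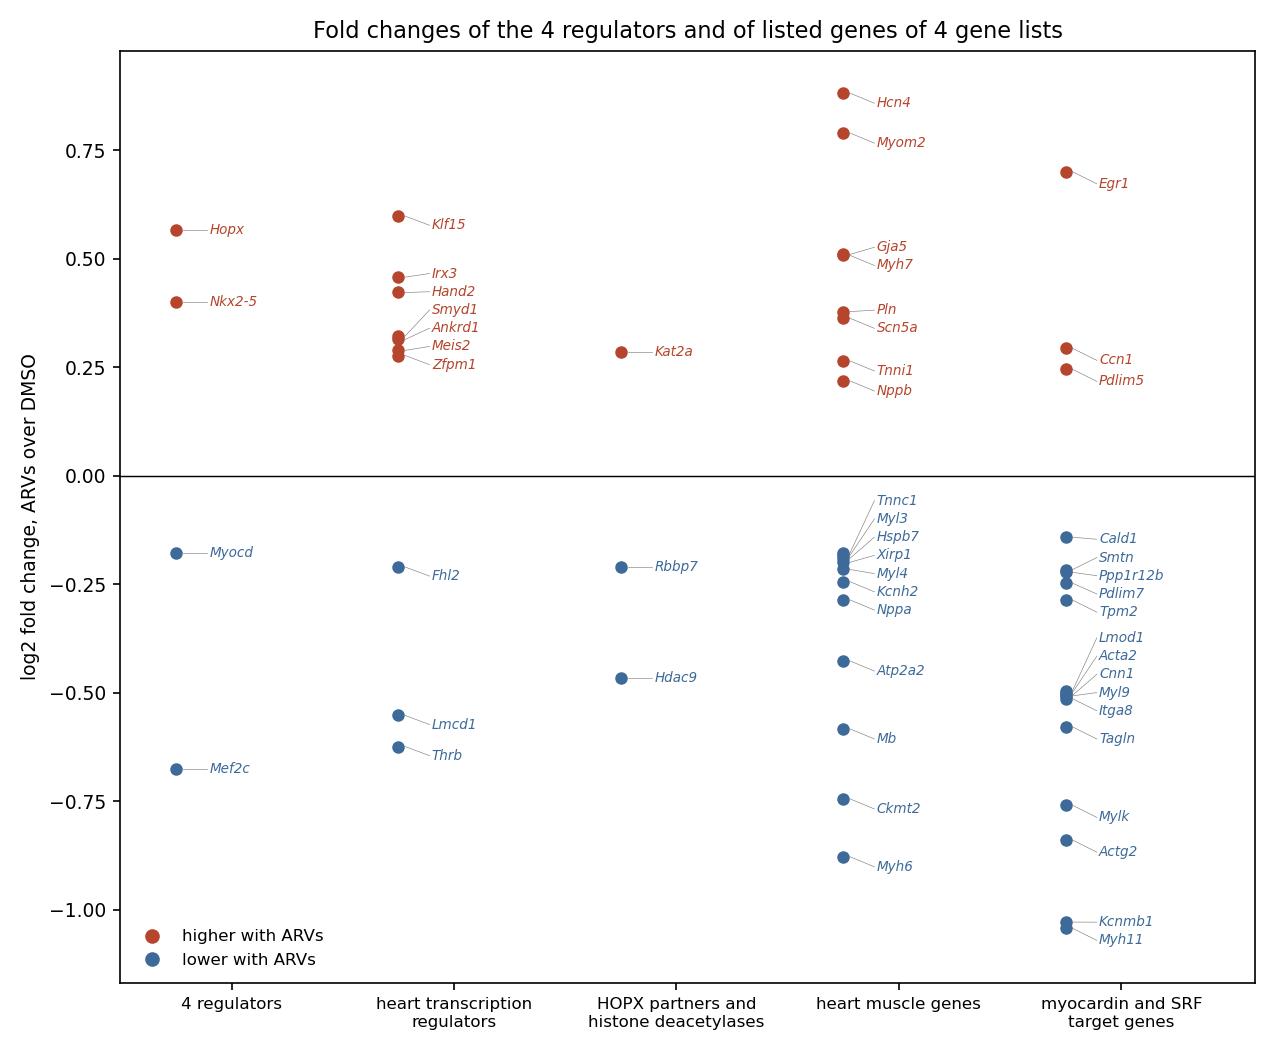
The log2 fold change of ARVs over DMSO (y axis) of the 4 regulators and of the genes of 4 lists that were in the table (x axis), red where higher and blue where lower with ARVs. Of the genes present, 7 of 10 other heart transcription regulators and 8 of 19 heart muscle genes are higher and 15 of 18 myocardin and SRF targets are lower, where 39.9% of all tested genes are higher and 60.1% lower.

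Some markers of the cells in these cultures were also among the listed genes. In bulk RNA fewer cells of a type cannot be told apart from less RNA per cell. The sums below cover only listed markers, all already called different, so they do not show how a whole marker set moved. Over all tested genes, 39.9% were higher and 60.1% lower with ARVs. Of 12 smooth muscle and pericyte markers, 5 were listed, each of them lower with ARVs, and their summed normalized count was 74407 to 86312 with ARVs and 104863 to 127980 with DMSO. Of these 5, 4 are also on the list of myocardin and SRF targets. Of 15 cardiomyocyte markers, 7 were present, 2 higher and 5 lower, with sums of 666399 to 715022 with ARVs and 758204 to 836029 with DMSO. The largest counts in the cardiomyocyte sum were of Nppa (log2 fold change -0.29), Myh6 (-0.88) and Myh7 (0.51), of which Myh7 went up. Of 15 fibroblast markers, 9 were present, 3 higher and 6 lower, with sums of 160584 to 162925 with ARVs and 167796 to 171686 with DMSO. This sum was carried by collagen gene Col3a1 (log2 fold change -0.30) and fibronectin gene Fn1 (0.27), which went opposite ways, and its direction turned with the scaling, from a log2 ratio of ARVs to DMSO of -0.07 with the authors' factors to 0.03 with TMM and 0.13 with median-ratio factors. The cardiomyocyte sum had a log2 ratio of -0.22 with the authors' factors, and its groups overlapped with TMM (-0.13) and median-ratio factors (-0.02). The smooth muscle sum was lower under each of these scalings, at -0.52, -0.43 and -0.32. Endothelial markers (2 of 12, 1 higher and 1 lower) summed to 722 to 790.4 with ARVs and 641 to 710.3 with DMSO. Macrophage and leukocyte markers (4 of 15, 3 higher and 1 lower) summed to 1262 to 1359.7 with ARVs and 952 to 1044 with DMSO. Most of that sum was Lyz2, at a mean of 930 with ARVs and 732 with DMSO. None of 8 epicardial markers was in the table, and no marker present was at 0 in any library. The part of these shifts in the values of Hopx, Nkx2-5, Mef2c and Myocd was not tested.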

How the data were processed

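RNA from NRVCs (3 ARVs and 3 DMSO libraries) was sequenced by the authors, who used HISAT2 for mapping to a rat reference and StringTie 1.3.3b for assembly, as their notes and methods state. The program that counted reads is not given in the sources used here. The deposited table gives, per gene, the raw read count, the normalized signal (the authors' count divided by a size factor of each library) and the authors' FPKM. It also holds the authors' log2 fold changes and p-values, which were used only to check that all 1756 deposited adjusted p-values lie under 0.05. Gene lengths and positions were used as deposited. The counts of the listed genes summed to 4329218 to 5871352 per library, about 25.0% to 26.6% of the totals of 17347680 to 22126119 that the FPKM values imply.

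Raw counts were tested in R 4.3.3 with edgeR 4.0.16 (filterByExpr, which removed 5 genes, then glmQLFit and glmQLFTest, two-sided, with Benjamini-Hochberg adjustment over 1751 genes at 0.05). Libraries were scaled by the authors' size factors, whose gene set is not stated but which differ from factors computed on the listed genes alone. TMM takes most genes as unchanged, which cannot hold over a table of called genes, and was an alternative. Standard errors came from the fold change and the F value. Alternatives were TMM, median-ratio factors, library totals, other filters (none, or at least 10 counts in every library), a threshold of 0.01, DESeq2 1.42.0, omission of each library in turn, and the replicate number as a block. Marker sums were set under other scalings after seeing the data. Similarity of patterns used log2(normalized count + 1) and genes with a mean of at least 50. The edgeR script was also run on simulated counts in which most genes were unchanged. The listed genes were all called different, so that run does not bear on the calls given here. Replicate numbers were not taken as pairs. Up to 8 called genes per list with the smallest adjusted p were named, and markers by count and range. The 4 genes and the lists were chosen with earlier results of these data known. Measurements by PCR, blot and microscopy were not analysed here.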

Additional observations from a re-analysis of the deposited data

How the results depend on the processing

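Hopx, Nkx2-5 and Mef2c kept their direction and passed edgeR or DESeq2 under all 14 alternatives, with log2 fold changes of 0.50 to 0.76, 0.36 to 0.60 and -0.75 to -0.47. Myocd did so under 12. It did not with TMM (-0.082) or median-ratio factors (0.021), both set on the listed genes, which shift all fold changes up by a median of 0.10 and 0.20. Passing was common to the listed genes: 1582 passed with TMM, 1235 with median-ratio factors and 1558 at the threshold of 0.01. Under every other alternative 1659 or more passed, so the calls do not set these regulators apart. Leaving out each library in turn gave 0.50 to 0.66 for Hopx, 0.36 to 0.48 for Nkx2-5, -0.75 to -0.59 for Mef2c and -0.19 to -0.16 for Myocd. With median-ratio factors, 536 genes were lower in place of 1052, and 56.6% of called genes were higher in place of 39.9%. The genes called lower then numbered 1 among heart transcription regulators, 0 among HOPX partners (1 of this list was still higher) and 4 among heart muscle genes, against 6 there with TMM. Col5a2 (0.011), Cse1l (0.019) and Pfn1 (0.0022) turned positive with median-ratio factors. Of the 532 values of 38 other named genes over all alternatives, 520 kept direction and call, 9 no longer passed and these 3 reversed. The replicate block left all 4 calls in place (0.56 for Hopx, 0.40 for Nkx2-5, -0.67 for Mef2c and -0.18 for Myocd), as it did for all 1751 tested genes. Deviations of same-numbered libraries correlated at 0.068, 0.33 and 0.12, and 2 of 6 libraries correlated best with their own number. Counting error was largest for Hopx, at 4.01% with ARVs and 4.78% with DMSO, but its observed spread was larger, at 11.8% and 10.2%. For Myocd, counting error was 2.01% with ARVs and 1.86% with DMSO, against an observed spread of 2.56% and 1.06%. The smallest exact p of 0.1 limits the ratios.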
